A study of Mus musculus with 6 samples.

Results

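The 3 Nr4a receptor genes and 7 further immediate early genes (Fos, Fosb, Fosl2, Junb, Egr1, Ier2 and Atf3) were followed in the distal colon of mice with and without TNFR2, one of the receptors for tumor necrosis factor. These 10 genes were picked by symbol, each filled 1 row among 23108 rows with a gene name, and all 10 reached the mean of 0.5 FPKM required for testing. FPKM, fragments scaled to transcript length and to mapped fragments, allow levels of different genes to be set side by side. The genes were chosen with the comparison of the genotypes in view, so their differences between genotypes are described. Their p-values in the fit over all genes are not read as tests. Male mice, all 8 weeks old, gave 1 mRNA library each: 3 were wildtype C57Bl/6 and 3 were TNFR2-/-, labelled with the same strain. The deleted part of the receptor gene, Tnfrsf1b, and the origin of the knockout line were not given in the sources used here. No transgene, Cre driver or treatment is named for either genotype. The comparison asks how transcription in the colon differs when the receptor is missing.

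Immediate early genes are transcribed within minutes of a stimulus from factors already present in the cell, among them SRF with its Elk partners and CREB, and their mRNAs decay quickly. Most of their products are transcription factors: Fos, Fosb and Fosl2 pair with Jun proteins such as Junb to form AP-1, Egr1 is a zinc finger factor, Atf3 belongs to the CREB/ATF family, and Ier2 is a small nuclear protein. Nr4a1, Nr4a2 and Nr4a3 (Nur77, Nurr1 and Nor1) are orphan nuclear receptors that act without a known natural ligand, so that their activity largely follows their amount. In the gut these genes are switched on in epithelium, muscle, vessels and immune cells alike. They also respond to the handling of tissue.

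Promoters of Nr4a1, Nr4a2 and Fos are shown to compare the CREB half-sites in windows that hold 4, 4 and 2 of them. Each run covers the 250 bases before 1 annotated start, which need not be the gene's first, 5′ to 3′ on the gene's own strand, from RefSeq, build GRCm38.p6 (the assembly of mm10). Capitals mark the cyclic AMP response element (CRE) half-site TGACG or its reverse complement CGTCA. The windows are chr15:101266596-101266845 (plus strand), chr2:57124004-57124253 (minus) and chr12:85473640-85473889 (plus), in the order of the runs.
Nr4a1: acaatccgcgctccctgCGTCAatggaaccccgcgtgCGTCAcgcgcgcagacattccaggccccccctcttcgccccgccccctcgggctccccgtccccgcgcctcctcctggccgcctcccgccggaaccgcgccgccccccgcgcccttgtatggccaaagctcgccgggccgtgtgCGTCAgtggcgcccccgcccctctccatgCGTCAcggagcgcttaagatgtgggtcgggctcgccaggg
Nr4a2: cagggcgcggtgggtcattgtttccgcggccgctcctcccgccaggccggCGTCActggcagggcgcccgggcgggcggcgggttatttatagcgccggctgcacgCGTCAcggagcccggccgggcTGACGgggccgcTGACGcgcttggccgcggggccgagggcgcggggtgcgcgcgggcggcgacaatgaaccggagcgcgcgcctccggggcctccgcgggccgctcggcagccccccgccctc
Fos: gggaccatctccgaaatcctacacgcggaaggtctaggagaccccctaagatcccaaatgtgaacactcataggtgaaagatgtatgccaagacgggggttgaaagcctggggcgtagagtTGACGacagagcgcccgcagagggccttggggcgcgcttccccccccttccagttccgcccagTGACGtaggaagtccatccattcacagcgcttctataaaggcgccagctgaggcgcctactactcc

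The 3 Nr4a windows hold 4 half-sites each. In Nr4a1 all 4 are written as the reverse complement and begin 233, 213, 69 and 40 bases before the start. Those of Nr4a2 begin 200, 144, 123 and 111 bases before it and those of Nr4a3 231, 213, 205 and 147 bases. Fos holds 2, at 129 and 66 bases, Fosb 1, at 60 bases, Junb 1, Atf3 1 and Fosl2 none. Of 32851 RefSeq promoter windows of the same length, 17.8% hold at least 1 half-site, 3.90% at least 2 and 0.137%, 45 windows, at least 4. Among 9989 tested genes with a promoter, members left out, each taken at its window with the most half-sites, the shares were 28.9%, 7.58% and 0.330%. Promoters of 8 of the 10 genes were matched; Egr1 and Ier2 were not. For the members, half-site counts are set beside no test of expression. Of the genes with 4, Nr4a1 was lower in the knockout without overlap, and Nr4a2 and Nr4a3 overlapped between genotypes. Fos, with 2, was higher and Fosb, with 1, lower, both without overlap. A link between half-site counts and levels was not tested.

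Some windows lie partly or wholly inside the annotated gene. That of Nr4a1 lies wholly within the RefSeq span of the gene, outside its GENCODE M21 exons. Of the Nr4a3 window, 227 bases lie in the RefSeq span, with 3 of its 4 half-sites, and 152 bases in GENCODE exons, with 1 half-site. The Fosb window has 73 bases in the span, with its half-site, and 6 in exons. The Fosl2 window lies wholly in exons, 7 bases of that of Atf3 do, and those of Nr4a2, Fos and Junb lie outside both.

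**Figure D1:**
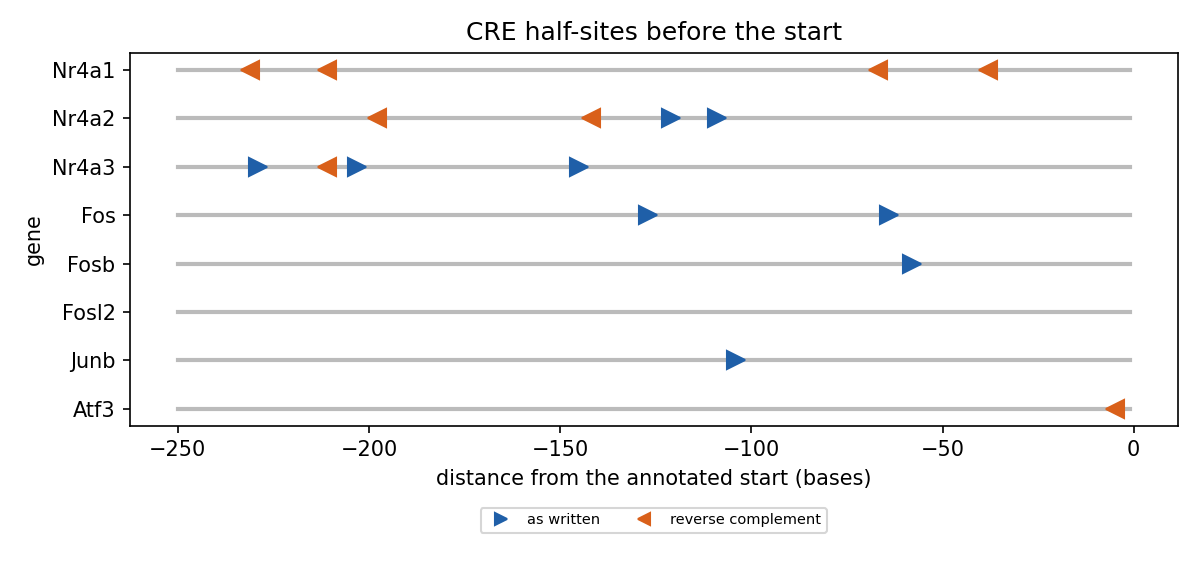
Positions of CRE half-sites in the 250 bases before 1 annotated start of each of 8 genes; the x axis is the distance from the start in bases, and arrowheads give the strand. The 3 Nr4a genes carry 4 half-sites each, Fos carries 2 and Fosl2 none.

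Searches covered 8 motifs in the same windows, on both strands except for TATAA, which was read on the gene's own strand. The full palindrome TGACGTCA, the AP-1 site TGANTCA, the CArG box bound by SRF and the Nr4a monomer site AAAGGTCA were found in none of the 8 genes' windows. They were found in 1.55%, 6.75%, 1.47% and 1.34% of all windows. Sites outside the 250 bases were not searched, so a gene without a match may hold one elsewhere. The EGR site GCGNGGGCG occurred once each in Nr4a1, Nr4a2, Fosb and Fosl2 and in 4.70% of all windows. In Nr4a1 it lies between the 2 half-sites nearest the start. A kappaB site was present in Fos, Fosb and Fosl2 and in 1643 of the 32851 windows, and a TATAA box in Fos and in 16.0% of all windows. The full palindrome would count as a half-site on each strand, since the motifs overlap. A match is only a run of letters, and binding was not measured.

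The libraries summed to between 655274 and 709593 FPKM. The stated sequencing depth was 50M paired reads of 50 bases on average; FPKM are not counts, so the depth of a library and counting intervals are unknown from the table. Tnfrsf1b measured 7.49, 8.20 and 8.17 FPKM in wildtype mice and 1.17, 1.12 and 0.924 FPKM in knockout mice, as the labels imply. The colon epithelial markers Epcam and Car1 were high throughout, while Cdx2 of the same list lay between 2.91 and 6.94 FPKM. The 6 epithelial markers with a row of their own summed to 2015 to 2823 FPKM in wildtype mice and 2232 to 3211 FPKM in knockout mice. Libraries stood apart in markers of neighbouring tissue. The 9 skeletal muscle markers with a row of their own summed to 7639, 2452 and 2828 FPKM in wildtype mice. In knockout mice 1, 2 and 3 they summed to 306, 1828 and 1357 FPKM. For 8 of the 9 genes the groups did not overlap and were lower in knockout mice, against 12.5% of all tested genes. The 10 skin keratinocyte markers summed to 1204, 570 and 1282 FPKM against 163, 632 and 1127 FPKM, with overlap in all 10. None of these markers was at 0 in any library.

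Nr4a1, the most abundant Nr4a receptor here, was the member with the largest difference. Its gene lies on chromosome 15 (101253902 to 101274795, GRCm38.p6). Nr4a1 measured 22.8, 15.7 and 19.9 FPKM in wildtype libraries 1, 2 and 3 and 8.28, 6.59 and 7.05 FPKM in knockout mice 1, 2 and 3. Every knockout library lay below every wildtype library, and the gap between the groups was about as wide as the range of the wildtype libraries. The mean was 19.4 ± 3.56 in wildtype mice and 7.31 ± 0.877 FPKM in knockout mice (SD, n = 3 each), 37.6% of wildtype. On the log2(FPKM + 1) scale, which understates the change of low genes, the knockout minus wildtype difference was -1.29 ± 0.14 (SE).

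Nr4a2, best known for its role in dopamine neurons and inducible in many other cells, was low. Its levels were 1.54, 1.32 and 1.23 FPKM in wildtype mice and 1.35, 0.811 and 0.813 FPKM in knockout mice. Knockout library 1 lay within the wildtype range and the other two below it. Nr4a3 (chromosome 4, 48045078 to 48086447) was the lowest member, at 1.17, 0.683 and 1.40 FPKM in wildtype mice and 0.659, 0.497 and 0.754 FPKM in knockout mice. Wildtype library 2 stood among the knockout libraries, so these groups overlapped. The log2 differences were -0.26 ± 0.13 for Nr4a2 and -0.34 ± 0.15 for Nr4a3 (SE), with knockout means at 72.8% and 58.8% of wildtype. All 3 receptors thus had lower knockout means, as did 57.4% of all tested genes. Nr4a1 made up 88.3% to 89.4% of the summed FPKM of the 3 receptors in wildtype mice and 80.4% to 83.4% in knockout mice.

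**Figure D2:**
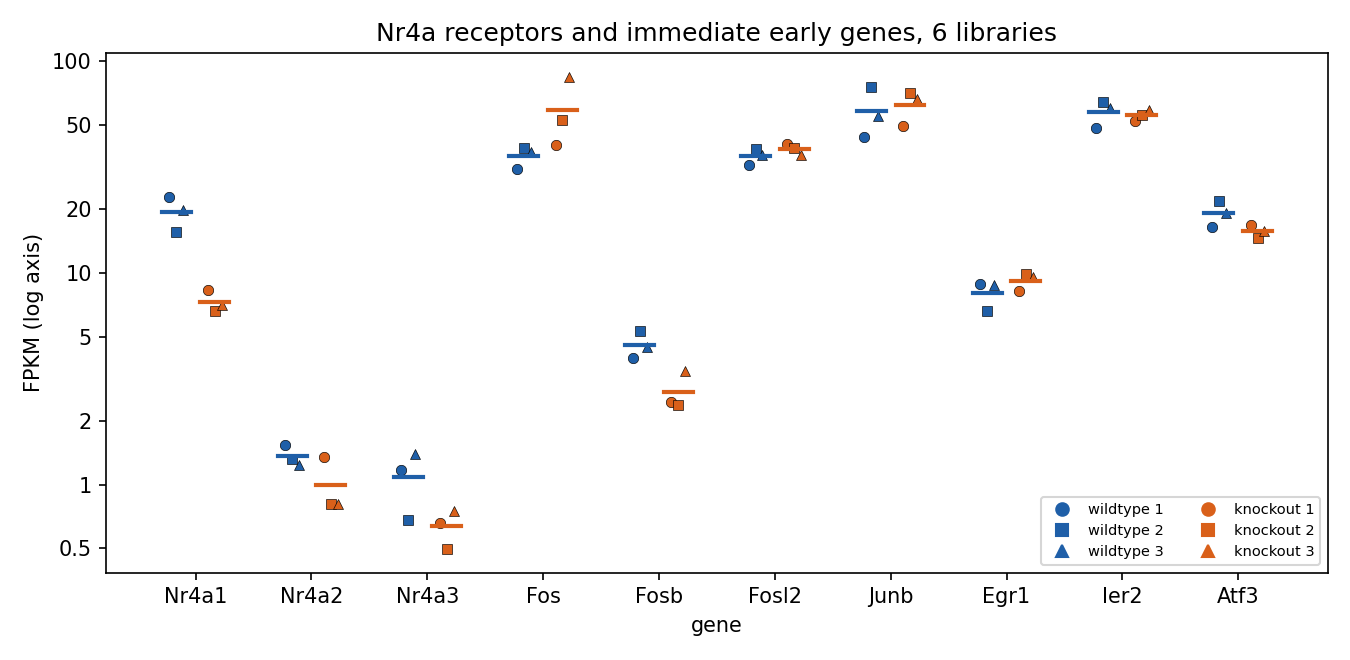
FPKM (log axis) of the 10 genes in each of the 6 libraries; blue marks wildtype, orange knockout, the symbol gives the replicate number and bars give group means. For Nr4a1, Fos and Fosb the groups do not overlap; Nr4a1 and Fosb are lower and Fos is higher in the knockout libraries.

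Fos went the other way. This AP-1 subunit (chromosome 12, 85473890 to 85477274) measured 31.1, 38.9 and 37.2 FPKM in wildtype mice and 40.1, 52.9 and 84.7 FPKM in knockout mice. The groups did not overlap, but knockout library 1 was only slightly above the highest wildtype library, while knockout library 3 stood far above the rest. The mean was 35.7 ± 4.11 in wildtype mice and 59.2 ± 23.0 FPKM in knockout mice (SD, n = 3 each), 1.66-fold higher, and the log2 difference was 0.65 ± 0.27 (SE). Without knockout library 3 that difference was 0.36.

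Fosb, whose short splice form accumulates after repeated stimulation, was lower in the knockout, unlike Fos. The 3 wildtype libraries gave 3.97, 5.32 and 4.48 FPKM and the knockout libraries 2.46, 2.37 and 3.43 FPKM. The groups did not overlap, with knockout library 3 again the highest of its group. The knockout mean was 60.0% of wildtype and the log2 difference -0.58 ± 0.14 (SE). Splice forms are not separated in the table.

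Fosl2, also called Fra-2, which is induced later and more lastingly than Fos, stayed within a narrow range. It measured 32.3, 38.7 and 36.2 FPKM in wildtype mice and 40.8, 39.2 and 36.2 FPKM in knockout mice, and its log2 difference was 0.11 ± 0.09 (SE). Knockout library 3, highest for Fos, was the lowest of its group for Fosl2. The share of Fos in the summed FPKM of the 3 Fos genes was 46.2%, 46.9% and 47.8% in wildtype mice and 48.1%, 56.0% and 68.1% in knockout mice. The share of Fosb was 5.75% to 6.41% in wildtype mice and 2.51% to 2.96% in knockout mice. Fos and Fosl2 were thus present at nearly equal level in all wildtype libraries and in knockout library 1, and Fos exceeded Fosl2 in knockout libraries 2 and 3.

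Junb, the Jun partner measured here, and Ier2 were the most abundant members. Junb measured 43.9, 75.8 and 54.9 FPKM in wildtype mice and 49.6, 70.5 and 66.4 FPKM in knockout mice. Its knockout range lay wholly inside the wildtype range, and its log2 difference was 0.11 ± 0.22 (SE). Its exons overlap those of Prdx2 on the opposite strand, and strandedness was not given in the sources used here, which leaves the level of Junb uncertain. Prdx2, a peroxiredoxin, stood at 229 ± 4.52 in wildtype mice and 219 ± 12.0 FPKM in knockout mice (SD, n = 3 each). No exon of another gene in GENCODE M21 overlaps the other 9 members.

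Ier2 measured 48.4, 64.2 and 60.5 FPKM in wildtype mice and 52.1, 55.7 and 58.9 FPKM in knockout mice, again with the knockout range inside the wildtype range. Its log2 difference was -0.04 ± 0.12 (SE). Egr1 gave 8.87, 6.63 and 8.76 FPKM in wildtype mice and 8.20, 9.87 and 9.57 FPKM in knockout mice. Its groups overlapped through knockout library 1, with a log2 difference of 0.17 ± 0.12 (SE). Atf3, a stress-induced repressor, gave 16.5, 22.0 and 19.3 FPKM in wildtype mice and 16.9, 14.6 and 15.8 FPKM in knockout mice. The groups overlapped only where wildtype library 1 lay below knockout library 1, and the log2 difference was -0.27 ± 0.11 (SE).

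**Figure D3:**
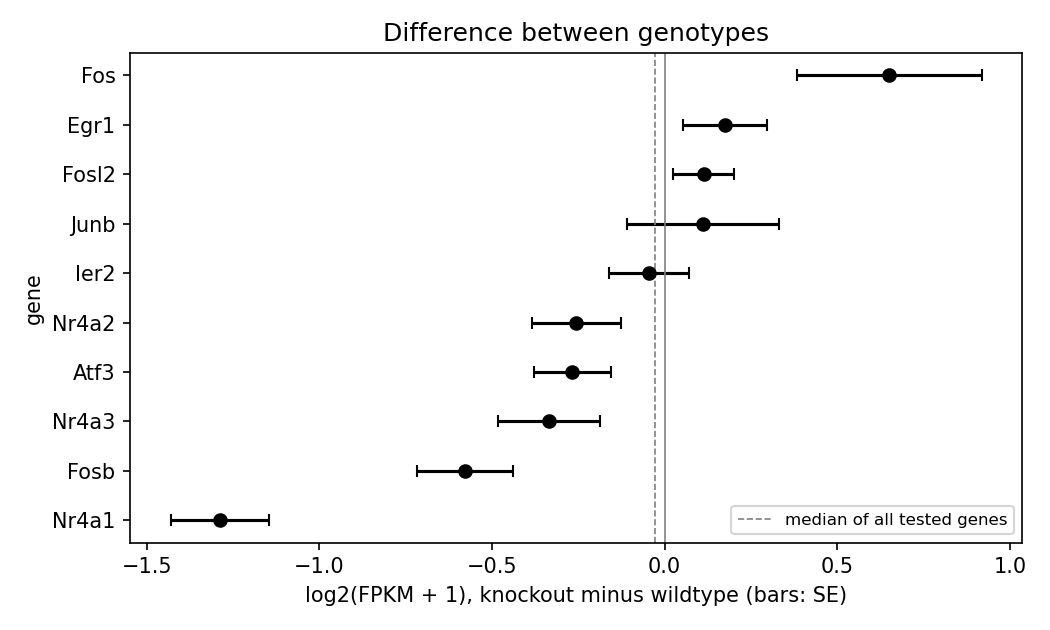
Fitted difference in log2(FPKM + 1), knockout minus wildtype, for the 10 genes, with SE bars from limma; the dashed line is the median of all 14564 tested genes, -0.03. Nr4a1 lies at -1.29 and Fosb at -0.58, Fos at 0.65, and the other 7 genes between -0.34 and 0.17.

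By role, the Nr4a, Fos and Egr genes did not move as a block. Knockout means were lower for 3 of 3 Nr4a genes, against 57.4% of all tested genes, and Nr4a2 and Nr4a3 overlapped between genotypes. The Fos genes were split with Fosb lower and Fos and Fosl2 higher, and Egr1 was higher by a small margin. In limma, 1 member, Nr4a1, passed an adjusted p under 0.05, against 0.288% of all tested genes (42 of 14564; 0.103% lower and 0.185% higher). The groups did not overlap and were lower in the knockout for 2 members, Nr4a1 and Fosb, against 12.5% of all tested genes, and higher for 1, Fos, against 9.3%. The authors' deposited table marks 2 members as significant, Nr4a1 lower and Fos higher, against 1.59% of the same rows (1.46% lower and 0.137% higher). As the members were chosen on this contrast, nothing is read from these counts. Leaving out wildtype library 3, knockout library 2 or knockout library 3 ended the call of Nr4a1, with log2 differences of -1.27, -1.23 and -1.27.

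The order of levels changed accordingly. In wildtype libraries Junb and Ier2 were highest, followed by Fos and Fosl2, Nr4a1 and Atf3, Egr1, Fosb, and Nr4a2 and Nr4a3. The ranges overlapped within the pairs Junb and Ier2, Fos and Fosl2, Nr4a1 and Atf3, and Nr4a2 and Nr4a3, and not between other neighbours. In knockout libraries Fos overlapped Junb and Ier2 and, through library 1, Fosl2, while Nr4a1 lay below Atf3 in each library and overlapped Egr1. Nr4a2 and Nr4a3 no longer overlapped.

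Ratios within a library cancel any scaling that all genes of that library share; the pairs given were chosen after their values were seen. There were 7.83, 7.32 and 8.30 times as many FPKM of Fos as of Fosb in wildtype mice and 16.3, 22.3 and 24.7 times in knockout libraries. Egr1 over Nr4a1 was 0.389, 0.423 and 0.441 in wildtype mice and 0.989, 1.50 and 1.36 in knockout libraries. Both ratios varied little among wildtype mice and were higher in every knockout mouse. Fos over Nr4a1 ran from 1.37 to 2.48 in wildtype mice and from 4.84 to 12.0 in knockout libraries, and Fos over Atf3 from 1.77 to 1.93 and from 2.37 to 5.36. Junb over Ier2, in contrast, ran from 0.908 to 1.18 and from 0.951 to 1.26, with overlap. Fos over Egr1 also overlapped, at 3.51 to 5.87 and 4.89 to 8.85.

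**Figure D4:**
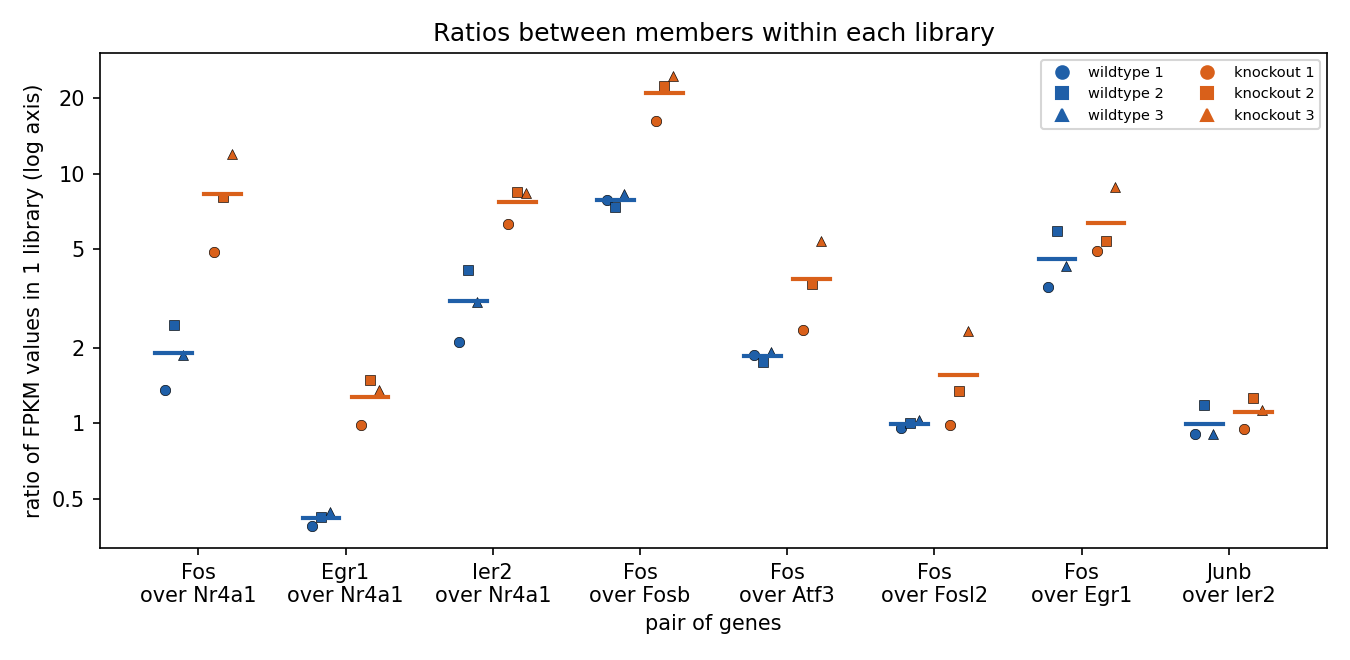
Ratios of FPKM between pairs of the genes within each library (log axis); blue marks wildtype, orange knockout, symbols give the replicate number and bars give group means. Fos over Fosb is 7.32 to 8.30 in wildtype mice and 16.3 to 24.7 in knockout libraries, while Junb over Ier2 overlaps between the genotypes.

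Likeness between members was measured as the root mean square difference of their log2(FPKM + 1) profiles over the 6 libraries, each centred on its mean. The closest pair was Fosl2 and Ier2, 0.14 apart, followed by Ier2 and Atf3 at 0.15 and Nr4a2 and Atf3 at 0.18. Nr4a1 and Fos were the farthest apart, at 1.06. The member nearest to Nr4a1 was Fosb, at 0.46, ahead of Nr4a3 at 0.49 and Nr4a2 at 0.53. The distance grows with the size of a gene's own variation, so flat profiles lie close together.

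Among 9092 other named genes averaging 5 FPKM or more, the profiles most like that of Nr4a1 were those of Miip, a cell migration inhibitor near Tnfrsf1b (0.23 apart), Pla2g12a, a secreted phospholipase (0.27), and Ide, the insulin-degrading enzyme (0.28). Most like Fos were Cps1, the mitochondrial carbamoyl phosphate synthetase (0.21), Spaca4, first described on sperm (0.21), and 1810019D21Rik (0.23), whose exons overlap Esrp2 on the opposite strand. For Egr1 they were Zfp579, Tmem42 and Chrac1 at 0.03, 0.05 and 0.06. None of these 9 genes is on the lists of immediate early genes used here. Exons of Ago2 overlap Chrac1 on the opposite strand, and exons of predicted genes overlap Tmem42 on either strand. Cps1 measured 4.47, 4.90 and 4.91 FPKM in wildtype mice and 6.22, 6.29 and 8.72 FPKM in knockout mice, with knockout library 3 highest as for Fos.

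The other immediate early genes are 63 genes of the class that are not members. This list, too, was chosen with earlier results of these data known. None of the 61 tested was called in limma over all genes, against 0.288% of all genes. At an unadjusted p under 0.05 there were 15 of 61, 14 lower and 1 higher, against 16.2% of all genes; the smallest Benjamini-Hochberg adjusted p in limma was 0.152, for Gadd45g. Knockout means were lower for 44 and higher for 17, against 57.4% lower over all genes, with a median log2 difference of -0.16 against -0.03. The authors' deposited table marks 1 of the 63, Ctgf, as significant, against 1.59% of all tested rows.

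Gadd45g, a growth arrest and stress gene, measured 31.8, 23.5 and 28.7 FPKM in wildtype mice and 15.2, 19.1 and 17.6 FPKM in knockout mice, without overlap (log2 difference -0.66 ± 0.13, SE). Ctgf, a matricellular growth factor induced through SRF and YAP, measured 39.1, 28.3 and 41.9 FPKM against 24.5, 24.8 and 18.0 FPKM, also without overlap (-0.67 ± 0.18, SE; limma, Benjamini-Hochberg adjusted p = 0.218). At the other end stood Edn1, the precursor of the vasoconstrictor endothelin, with 18.8 ± 2.15 FPKM in wildtype mice and 25.1 ± 4.71 FPKM in knockout mice, and the kinase gene Sgk1 with 45.5 ± 5.69 and 59.4 ± 13.7 FPKM (SD, n = 3 each). Their limma, Benjamini-Hochberg adjusted p-values were 0.286 and 0.342. The most abundant genes of the list had adjusted p-values of 0.422 to 0.735 in limma: Klf4, a factor of differentiated colonocytes, had a mean of 246 FPKM in wildtype mice and 232 FPKM in knockout mice, Id1 188 and 202 FPKM, Mcl1 137 and 147 FPKM, and Jund 148 and 128 FPKM.

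**Figure D5:**
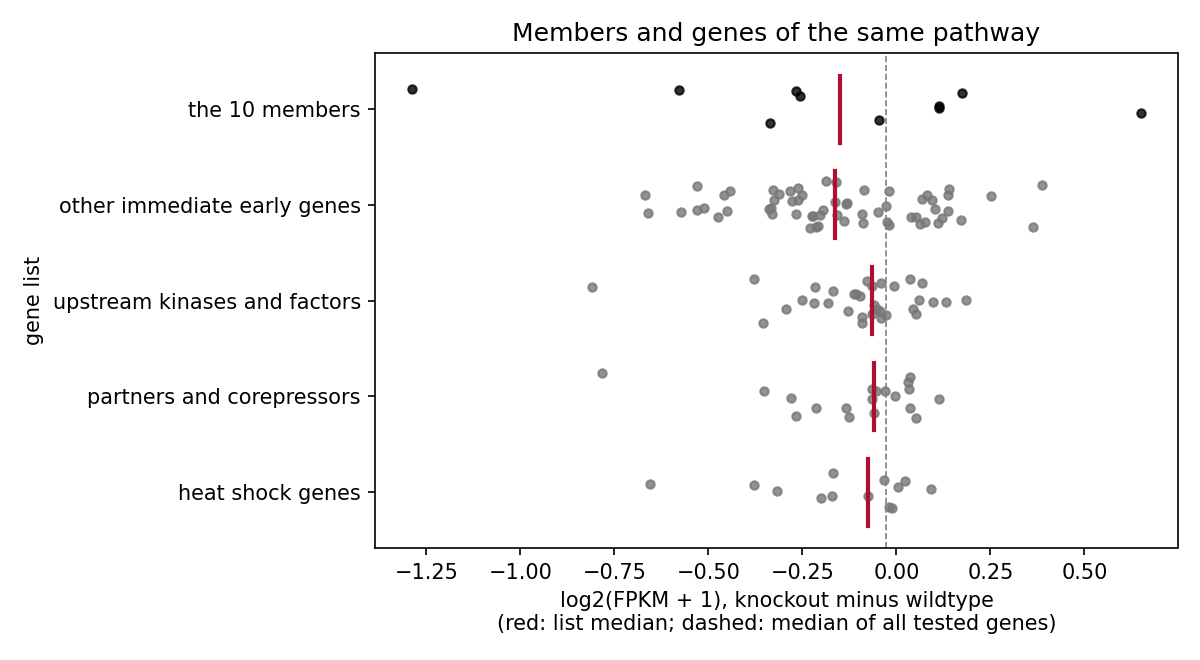
Knockout minus wildtype differences in log2(FPKM + 1) for the 10 members and 4 lists of related genes; each point is a gene, red bars are list medians and the dashed line is the median of all tested genes. Nr4a1 lies to the left and Fos to the right of every listed gene, and the medians of the 4 lists lie between -0.16 and -0.06.

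Upstream kinases and factors did not pass the test. The 33 tested genes included those of the ERK, p38, RSK and PKA kinases and of SRF, Elk, CREB and MEF2 factors. None was called in limma, against 0.288% of all tested genes. An unadjusted p under 0.05 was reached by 4, all lower, against 16.2% of all tested genes. The median log2 difference of the list was -0.07. Mef2c, a factor of muscle, vessel and lymphoid cells, had the largest difference, from 13.2, 5.87 and 7.34 FPKM in wildtype to 2.41, 6.70 and 4.76 FPKM in knockout mice. Its groups overlapped, limma gave an adjusted p of 0.382, and the authors' deposited table marks it as significant. Within each genotype its order over the libraries was that of the skeletal muscle sums, and the part of muscle in its level was not tested. Elk3 measured 7.71 ± 1.02 FPKM in wildtype mice and 5.69 ± 0.435 FPKM in knockout mice (SD, n = 3 each; limma, adjusted p = 0.222), and exons of Cdk17 overlap it on the opposite strand. Mapk3 (ERK1), the most abundant gene of the list, measured 188 ± 22.0 and 201 ± 25.1 FPKM, Map2k1 (MEK1) 78.5 ± 5.34 and 86.2 ± 8.30 FPKM, and Crtc1, a CREB coactivator, 2.63 ± 0.0196 and 3.13 ± 0.417 FPKM.

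Partners and corepressors of the members gave 0 calls among 19 tested genes in limma, against 0.288% of all tested genes. None was marked in the authors' deposited table, and 2 had an unadjusted p under 0.05, against 16.2% of all tested genes. The 2 were Rxrg, a retinoid X receptor and the kind of partner with which Nr4a1 and Nr4a2 pair, and Nab2, the corepressor of Egr proteins. Rxrg measured 3.23, 1.24 and 1.51 FPKM in wildtype mice and 0.419, 0.984 and 0.661 FPKM in knockout mice (limma, adjusted p = 0.260). Its order over the libraries was that of the skeletal muscle sums, and the part of muscle in its level was not tested. Nab2 measured 8.97 ± 0.858 and 6.85 ± 1.12 FPKM (SD, n = 3 each; limma, adjusted p = 0.273). Nab2 shares exon sequence with Stat6 and Nemp1 on the opposite strand. The Jun gene measured 36.9 ± 4.84 FPKM in wildtype mice and 38.2 ± 3.21 FPKM in knockout mice.

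Heat shock genes, which report handling and protein stress, gave 0 calls among 13 in limma, against 0.288% of all tested genes. There were 0 at an unadjusted p under 0.05, against 16.2% of all tested genes. The authors' deposited table marks 0, against 1.59% of all tested rows. Hspa8 measured 726 ± 30.1 FPKM in wildtype mice and 729 ± 48.8 FPKM in knockout mice, and the inducible Hspa1a 13.8 ± 3.24 and 10.2 ± 1.52 FPKM (SD, n = 3 each). Dnaja1 stood out in 1 library, at 22.9, 24.7 and 75.1 FPKM in wildtype mice against 21.8, 20.4 and 23.5 FPKM in knockout mice. The authors' group value for Dnaja1 in wildtype mice was 23.9 FPKM, while its library values averaged 40.9 FPKM. Hspa1a has a near-identical copy, Hspa1b, and exons of other genes overlap Dnaja1, Hspa1a, Edn1, Jun and Jund on the opposite strand. On the same strand, Mir207 overlaps Dnaja1, and Snord14c, Snord14d and Snord14e overlap Hspa8. These overlaps and the copy leave the levels of these genes uncertain.

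Markers of other cells in the gut wall had lower knockout means alongside Nr4a1. In these bulk samples fewer cells of a type and less RNA per cell cannot be told apart. All 6 measured macrophage markers were lower in every knockout library than in every wildtype library, with summed levels of 343 to 391 FPKM in wildtype mice and 192 to 284 FPKM in knockout mice, and 4 of 6 endothelial markers did not overlap, with sums of 44.9 to 60.9 and 32.4 to 42.5 FPKM. Of 6 fibroblast markers 3 did not overlap (1126 to 1546 and 891 to 1158 FPKM), and none of 7 smooth muscle markers (6374 to 10179 and 5867 to 8077 FPKM). Of 4 tested adipocyte markers 3 did not overlap (sums of 136 to 227 and 74.4 to 100.2 FPKM over 5 genes). Over all tested genes, 12.5% were lower in the knockout without overlap. Summed T cell markers ran from 4.72 to 6.69 and from 2.86 to 4.80 FPKM, B cell markers from 5.88 to 15.9 and from 2.57 to 14.5 FPKM, and enteric neuron and glia markers from 32.4 to 49.7 and from 26.8 to 38.6 FPKM. No gene of the marker lists was called in limma, against 0.288% of all tested genes. At an unadjusted p under 0.05, against 16.2% of all tested genes, there were 6 of 6 macrophage, 4 of 6 endothelial and 6 of 6 fibroblast genes. There were 0 of 7 smooth muscle, 4 of 4 adipocyte, 2 of 3 T cell and 0 of 4 B cell genes. The remaining lists had 1 of 7 neuron and glia, 1 of 9 skeletal muscle, 0 of 10 skin and 0 of 6 colon epithelial genes. All genes under 0.05 were lower. Of the 6 colon epithelial genes, 5 had higher knockout means. The authors' deposited table marks 8 skeletal muscle, 3 skin and 2 adipocyte markers as significant and lower, against 1.46% of all tested rows. Of the marker lists only that of adipocytes had a gene listed at 0, Lep in knockout library 2. Within wildtype, Nr4a1 levels and skeletal muscle sums had the same order over the 3 libraries, while knockout library 1, with the lowest muscle sum, had the highest Nr4a1 level of its group. With the mean of the muscle markers as a covariate, chosen after seeing the data, the log2 difference of Nr4a1 was -1.33 without a call. For Fos that covariate gave 0.94. With the skin markers as covariate the difference of Nr4a1 was -1.31, also without a call. The part of the other marker lists in the levels of the members was not tested.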

How the data were processed

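Distal colon mRNA of 3 wildtype and 3 TNFR2 knockout mice was sequenced, and groups and replicate numbers came from the labels. The authors deposited 1 FPKM value per gene and library, group FPKM values, log2 fold changes, p-values and adjusted p-values. Per the series' design text, reads were aligned with Tophat2 and Bowtie2, assembled with Cufflinks and tested with Cuffdiff 2 at a q-value under 0.05. The files use mm10, per the submitters' processing notes. Tool releases, annotation, strandedness and any scaling of the libraries were not given in the sources used here.

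Rows without a gene name (1509, 6.13%) were left out. Values were tested as log2(FPKM + 1) with limma 3.58.1 in R 4.3.3 (trend and robust moderation, 6 libraries, no covariate) for 14564 rows with a mean of at least 0.5 FPKM, with Benjamini-Hochberg adjustment over all of them, and called at an adjusted p under 0.05. The fit was tested on simulated data. Tables were summarised with pandas 2.3.3 and numpy 2.4.6 under Python 3.11.15, and matplotlib 3.10.9 drew the figures. Promoters came from RefSeq and overlapping exons from GENCODE M21, both on GRCm38.

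The members and gene lists were chosen with earlier results of these data known. Genes named beyond the members were, per list, up to 6 called genes, the 4 most abundant and the 2 with the largest and 2 with the smallest difference, and the 3 nearest profiles of Nr4a1, Fos and Egr1. Alternatives were another pseudocount (0.1), no filter, median-ratio scaling, plain moderation, no small RNA genes, the replicate number as a block, marker covariates and leaving out each library. The libraries come from separate mice as far as the labels state.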

Additional observations from a re-analysis of the deposited data

How the results depend on the processing

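The difference between genotypes kept its sign in 137 of 140 combinations of the 10 members with 14 alternatives. The exceptions were Fosl2 with the skeletal muscle covariate (-0.01), Junb without wildtype library 1 (-0.07) and Ier2 without wildtype library 2 (0.04); the cause was not tested. The log2 difference ranged from -1.43 to -1.17 for Nr4a1, from -0.73 to -0.49 for Fosb and from 0.36 to 0.94 for Fos. Nr4a1 was called in 8 of the 14 alternatives and no other member in any. Its call was also lost without a filter and with either covariate. As the members were chosen on this contrast, nothing is read from these calls. The number of called genes, 42, became 22 without small RNA genes, 27 with the skin covariate and 21 with the muscle covariate, and it ranged from 21 to 70 when single libraries were left out. Among the other immediate early genes it ranged from 0 to 1, Cyr61, named after its values were seen, being called without wildtype library 2. Counts for the upstream, partner and heat shock lists stayed at 0 in all 14. Replicate numbers gave no sign of pairing, though correlations from 3 mice a genotype cannot exclude it. Deviations of same-numbered libraries correlated at -0.37, -0.34 and 0.21, and those of differently numbered ones at -0.24 to 0.47. With the replicate number as a block 24 genes were called, Nr4a1 among them. Median-ratio scaling moved the median of all differences by 0.02. Levels near 1 FPKM, as for Nr4a2 and Nr4a3, are the least precise, and with a pseudocount of 0.1 their differences were -0.45 and -0.65.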

Other observations

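CRE half-sites and expression were set side by side for all tested genes with a RefSeq promoter, members left out. Of 33 genes with at least 4 half-sites in the 250 bases before a start, none was called in limma. At the share of 0.288% over all tested genes, so few genes would seldom hold a call, and nothing is read from that count. Knockout means were lower for 13 of the 33 (39.4%), and the median log2 difference was 0.04. Of 7100 genes without a half-site, 11 were called, 57.8% had lower knockout means and the median was -0.03. For genes with 1, 2 and 3 half-sites, 58.1%, 61.5% and 48.8% had lower knockout means, with medians of -0.02, -0.03 and 0.01. The contrast between these sets was not tested. Of the 42 tested other immediate early genes with a promoter in the table, 20 held at least 1 half-site (47.6%) and 12 at least 2 (28.6%), against 28.9% and 7.58% of all 9989 tested genes with one, and none held 4. Areg, Cebpb and Dusp1 held 3.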
